A study of Mus musculus with 19 samples.

Results

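The Cyp2 genes encode the largest family of drug- and lipid-metabolising cytochrome P450 enzymes of mouse liver. Members were taken from the deposited count table by name (Cyp2, a letter and a number) and by a total of at least 50 counts over the 19 libraries. There were 24421 gene symbols in it, of which 50 had such a name and 41 were members. The 2 members nearest the limit were Cyp2t4 with 96 counts and Cyp2j8 with 136, and the nearest names outside it were Cyp2b13 with 32 and Cyp2c65 with 16. After a filter on low counts 39 members were tested, all but Cyp2t4 and Cyp2j8.

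Cytochrome P450 enzymes are haem proteins of the endoplasmic reticulum that insert oxygen into their substrates, with electrons supplied by P450 oxidoreductase and, for some reactions, by cytochrome b5. In liver the Cyp2 enzymes act on drugs, steroids, bile acids, arachidonic acid and ketone-related small molecules, and many are made mainly by hepatocytes around the central vein. Their genes are known to respond to fasting, to inflammation, to the xenobiotic receptors CAR (Nr1i3) and PXR (Nr1i2), to the circadian clock and to sex-specific growth hormone signals.

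The RNA came from livers of mice on a purified normal diet that had been injected 2 times a week for 3 weeks with antisense oligonucleotides (ASOs), synthetic strands that pair with a chosen RNA and cause its loss. All groups carried an ASO, either a control or one aimed at Plin5, which encodes the lipid droplet protein perilipin 5, and all were fasted overnight. The 4 groups were fasted control ASO (4 libraries, numbered 1, 3, 4 and 5), fasted PLIN5 ASO (5), control ASO re-fed for 4 h (5) and PLIN5 ASO re-fed for 4 h (5). One oligonucleotide against Plin5 is named in the labels, so effects of lower Plin5 and other effects of that oligonucleotide cannot be told apart. Not given in the sources used here are strain, sex and age.

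Library totals ran from 24.9 to 66.9 (counts in units of 1000000). Plin5 stood lower with PLIN5 ASO by 2.01 on the log2 scale in fasted liver (log2 fold change -2.01, adjusted p = 0.00257, edgeR quasi-likelihood test) and by 2.28 in re-fed liver (log2 fold change -2.28, adjusted p = 0.00119). The labels do not say that replicates are separate animals, so p-values measure the spread between these libraries. Fasted control ASO 3 and 4 were closer to each other (chi-square per degree of freedom 3.28) than any other pair of a group (next pair 19.5). Clock genes set 4 libraries apart, fasted PLIN5 ASO 3 and 5 and re-fed control ASO 3 and 5, called clock-shifted here: Dbp, a clock output factor, stood at 1.82 to 18.9 CPM (counts per 1000000, on scaled library totals) in these and at 36.3 to 160 CPM in the other 15. Hepatocyte markers such as Alb, Ttr and Apoa1 summed to 93954 CPM or more in every library, with none of the 8 measured at 0 in a group.

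The members lie in a few gene clusters. Of 41 members 40 had a position in the GENCODE annotation of build GRCm38. On chromosome 19, 13 Cyp2c genes lie between 39007019 and 40187333, a stretch of 1180.3 kb, and Cyp2c44 lies apart at 44005022 to 44029208 on the minus strand. On chromosome 15, 9 Cyp2d genes lie within 423.8 kb, and RefSeq places Cyp2d13, a transcribed pseudogene, between them at 82636750 to 82642045. Chromosome 7 holds 10 members of the a, b, f, g, s and t subfamilies within 1356.2 kb, and Cyp2r1 and Cyp2e1 farther along. Chromosome 4 holds 4 Cyp2j genes within 219.6 kb and chromosome 3 holds Cyp2u1.

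Upstream sequences come from RefSeq (GRCm38.p6), which gave a window for 31 of the 41 members, among them 9 of the 12 that passed the threshold in a comparison below. Shown are the 6 of these 9 that hold the letters CAAAGNNCA and, for their likeness, the pair Cyp2a5 and Cyp2a4, which did not pass. Cyp2e1, Cyp2c55 and Cyp2r1, which did pass, do not hold those letters and are not shown. The 8 stretches below each hold 150 bases that lie before both the RefSeq and the GENCODE start of the gene: Cyp2d26 at chr15:82794295-82794444 (minus strand), Cyp2d10 at chr15:82407196-82407345 (minus strand), Cyp2c37 at chr19:39992274-39992423 (plus strand), Cyp2c50 at chr19:40089529-40089678 (plus strand), Cyp2c70 at chr19:40187334-40187483 (minus strand), Cyp2a12 at chr7:27028931-27029080 (plus strand), Cyp2a5 at chr7:26835155-26835304 (plus strand) and Cyp2a4 at chr7:26307019-26307168 (plus strand). Capitals mark the core promoter letters TATAAA on either strand and, also on either strand, CAAAGNNCA (N is any base), the core bound by the hepatocyte factor HNF4A and related receptors. Only matches that lie wholly within a stretch are marked. The TATAAA of Cyp2d26, Cyp2c70 and Cyp2a5 lies nearer the RefSeq start than the stretch reaches, and that of Cyp2a4 is cut by its end.
Cyp2d26: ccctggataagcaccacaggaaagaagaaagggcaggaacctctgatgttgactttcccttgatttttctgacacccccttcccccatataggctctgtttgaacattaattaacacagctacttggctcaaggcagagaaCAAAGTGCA
Cyp2d10: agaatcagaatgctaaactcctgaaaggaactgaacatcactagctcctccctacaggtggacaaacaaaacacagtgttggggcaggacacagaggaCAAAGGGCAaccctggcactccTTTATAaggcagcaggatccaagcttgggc
Cyp2c37: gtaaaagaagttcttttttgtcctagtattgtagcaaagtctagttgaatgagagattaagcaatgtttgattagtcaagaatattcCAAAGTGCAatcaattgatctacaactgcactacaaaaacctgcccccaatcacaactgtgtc
Cyp2c50: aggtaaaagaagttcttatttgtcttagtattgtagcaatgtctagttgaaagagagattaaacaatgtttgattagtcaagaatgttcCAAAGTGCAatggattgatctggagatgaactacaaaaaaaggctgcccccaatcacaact
Cyp2c70: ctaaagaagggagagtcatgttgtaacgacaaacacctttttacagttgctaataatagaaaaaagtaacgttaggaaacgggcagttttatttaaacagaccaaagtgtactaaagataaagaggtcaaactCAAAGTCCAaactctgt
Cyp2a12: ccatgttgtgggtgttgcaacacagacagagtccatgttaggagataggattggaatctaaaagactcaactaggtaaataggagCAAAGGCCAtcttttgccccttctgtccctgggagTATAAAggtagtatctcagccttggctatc
Cyp2a5: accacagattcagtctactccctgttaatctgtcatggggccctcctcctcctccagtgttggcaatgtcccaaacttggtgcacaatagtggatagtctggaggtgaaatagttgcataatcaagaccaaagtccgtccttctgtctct
Cyp2a4: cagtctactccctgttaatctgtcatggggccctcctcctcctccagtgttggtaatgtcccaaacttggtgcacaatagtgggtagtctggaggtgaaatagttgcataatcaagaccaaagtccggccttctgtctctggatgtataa

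Searched over 250 bases before the RefSeq start on both strands, CAAAGNNCA was found in 14 of 31 members (45.2%), against 6.29% of 27025 genes with a window. All 14 matches read in the direction of the gene, between 125 and 37 bases before the start (positions -125 to -37), and they were in 7 of 11 Cyp2c windows, 5 of 5 Cyp2d windows and 2 of 4 Cyp2a windows. TATAAA was found in 16 of 31 members (51.6%), against 14.3% of all genes. The D-box letters TTANGTAA, bound by Dbp and its relatives, were found in 1 member, Cyp2c38, and in 2.44% of genes. The HNF4A core stands before genes that fell with re-feeding (Cyp2c37, Cyp2d26), before genes that rose with it (Cyp2c70, Cyp2d10) and before genes that fell with PLIN5 ASO (Cyp2c50, Cyp2a12). It was not in the windows of Cyp2e1, which fell with re-feeding, or of Cyp2c55 and Cyp2r1, which rose, and it is a match of letters, not a measured binding site. None of these matches overlapped a match to another of the 3 motifs. Over 250 bases Cyp2c37 and Cyp2c50 were 84.3% identical and Cyp2a5 and Cyp2a4 97.6% identical, so these pairs are close copies upstream. Cyp2e1 and Cyp2d26, aligned the same way, were 50.3% identical. Identity of the coding parts was not measured.

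Copies that share transcript sequence limit what the counts can tell. Not given in the sources used here are the strand setting of the counting and its treatment of reads that match several genes. All 50-base stretches of each member's longest annotated transcript were searched for in the transcripts of other genes. The share found there was 72.1% for Cyp2c40, 54.8% for Cyp2c69 and 52.8% for Cyp2c67. It was 40.8% for Cyp2a5, 40.5% for Cyp2d10 and 38.0% for Cyp2a4. The share was 30.1% for Cyp2c37, 29.0% for Cyp2d9, 25.7% for Cyp2c54, 20.4% for Cyp2a12 and 16.6% for Cyp2c50. It was 4.76% for Cyp2e1 and 0 for Cyp2c70, Cyp2r1, Cyp2f2 and Cyp2c44. Values of members with a large share are uncertain as to which copy they come from. The pseudogene Cyp2c53-ps overlaps Cyp2c29 by 5581 bases on the same strand, and Cyp2f2 lies across from an antisense gene over 6194 bases. Cyp2d9 overlaps the pseudogenes Gm46501 and Gm49421 by 3049 and 1172 bases on the same strand.

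Levels between genes were compared in the deposited FPKM, which are per length. Cyp2e1, which oxidises ethanol, acetone and paracetamol, stood far above the rest with a mean of 7067 FPKM over the 19 libraries, 8.51-fold above the next member, and made up 53.4% of the family's summed FPKM. Next came Cyp2d9, a male-typical steroid hydroxylase, with 831 FPKM, and Cyp2f2, which activates naphthalene, with 798 FPKM. Cyp2d26 stood at 776 FPKM, Cyp2a12, a steroid and bile acid hydroxylase, at 548 FPKM, and Cyp2c29, an arachidonic acid epoxygenase, at 522 FPKM. Neighbours such as Cyp2d9 and Cyp2f2, or Cyp2a12 and Cyp2c29, had ranges that overlapped between libraries. In all 16 members had a mean of at least 100 FPKM, 15 lay between 1 and 100 FPKM and 10 lay under 1 FPKM. The lowest by mean FPKM were Cyp2b10, the classical CAR target, at 0.390 FPKM, Cyp2s1 at 0.162 FPKM and Cyp2j8 at 0.132 FPKM. Cyp2t4 is listed at 0 in every library of the FPKM table.

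**Figure D1:**
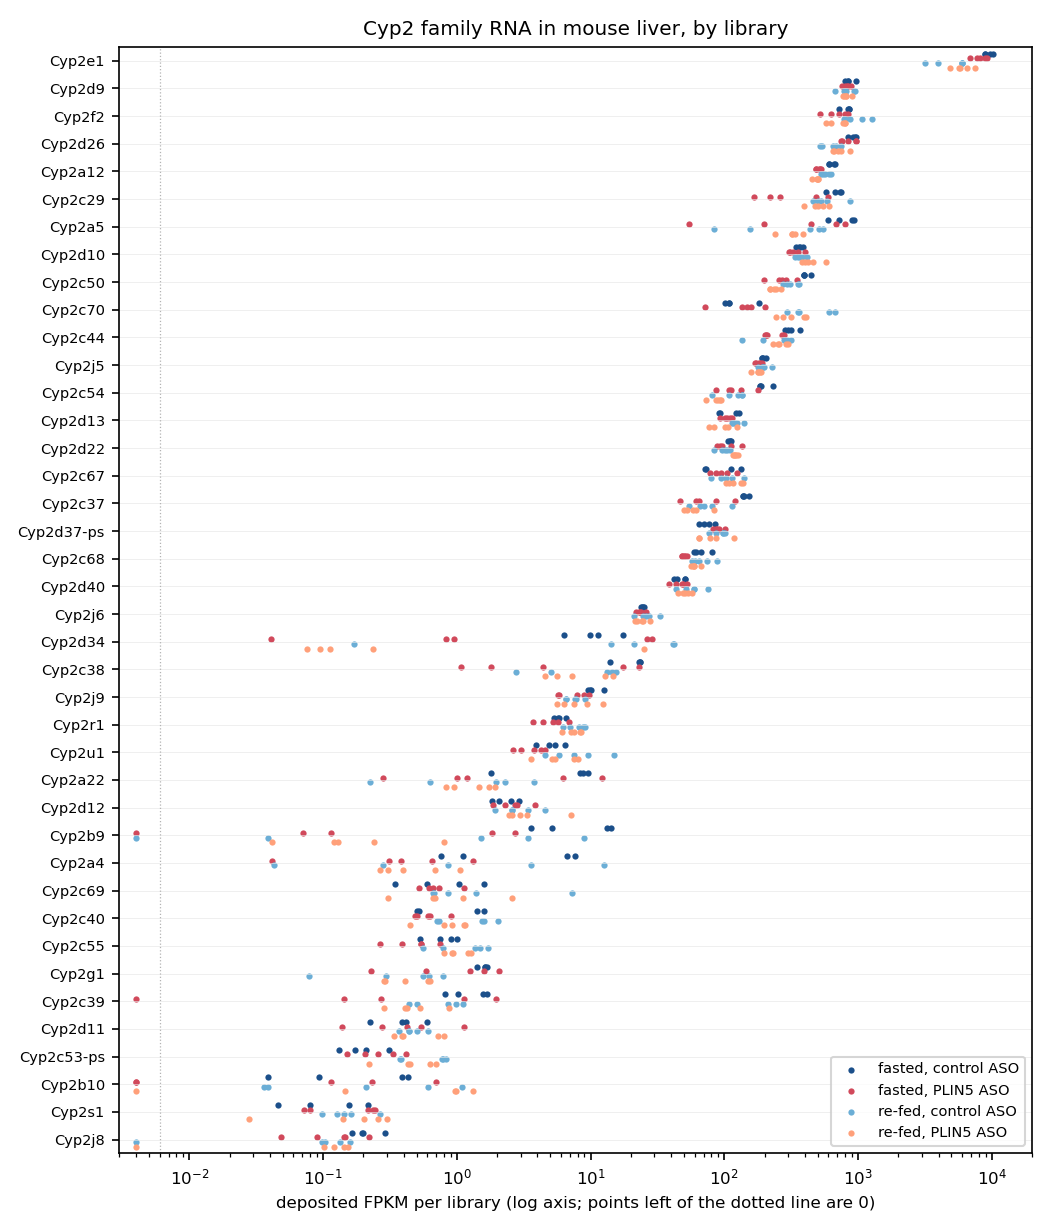
Deposited FPKM of 40 Cyp2 members (rows, by falling mean) in each of the 19 libraries on a log axis, coloured by group, with libraries listed at 0 drawn left of the dotted line; Cyp2t4, at 0 in all, is left out. Cyp2e1 lies alone at the top with a mean of 7067 FPKM, and Cyp2d34, Cyp2b9 and Cyp2a4 spread over several powers of 10 within a group.

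As a share of all counts the 41 members made up 2.83% to 3.08% in the fasted libraries with control ASO and 1.94% to 2.76% in those with PLIN5 ASO. After re-feeding the shares were 1.69% to 2.30% with control ASO and 1.88% to 2.23% with PLIN5 ASO. Every fasted control library lay above every library of the other groups. Cyp2e1 alone took 53.9% to 58.6% of the Cyp2 counts in fasted and 32.1% to 48.4% in re-fed livers with control ASO. Without Cyp2e1 the members made up 1.28% to 1.31%, 0.835% to 1.18%, 1.09% to 1.28% and 0.968% to 1.05% of counts in the same order. In bulk liver fewer cells of a type and less RNA per cell cannot be told apart. These shares are a description and were given no test.

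Re-feeding under control ASO asks how the family differs between a fasted and a re-fed liver without the Plin5 oligonucleotide. The enzyme of ketone and alcohol oxidation, Cyp2e1, fell, as did Cyp2d26 and the neighbouring arachidonic acid enzymes Cyp2c37 and Cyp2c54, while Cyp2c70, which makes the muricholic bile acids of the mouse, rose from a mean of 228 CPM ± 67.3 in fasted livers (SD, n = 4) to 815 CPM ± 314 in re-fed ones (SD, n = 5). Of 39 members tested 8 passed the threshold (20.5%), 3 higher and 5 lower, against 13.2% of all 13293 genes (6.42% higher and 6.82% lower). DESeq2 called 11, the same 8 and Cyp2c50, Cyp2a12 and Cyp2d37-ps (DESeq2 adjusted p = 0.025, 0.023 and 0.0467). An unadjusted p under 0.05 was seen for 17 members (43.6%), against 28.8% of genes. The median log2 fold change was -0.03 for the members and 0.03 for all genes. Groups did not overlap for 9 members that were lower, 23.1% against 9.12% of all genes, and for 2 that were higher, 5.13% against 7.15%. Of 34 tested genes of other Cyp families 11 passed in edgeR (32.4%), 3 higher and 8 lower, a larger share than in the Cyp2 family.

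Cyp2e1 stood at 17536, 15443, 15484 and 16712 CPM in the fasted libraries 1, 3, 4 and 5 and at 9901, 9723, 6776, 10004 and 5214 CPM in the re-fed libraries 1 to 5, the order used throughout. All re-fed libraries lay below all fasted ones, and the clock-shifted libraries 3 and 5 were the lowest. The log2 fold change was -0.97 (SE 0.17, 95% confidence interval -1.33 to -0.60, adjusted p = 0.00138, edgeR quasi-likelihood test). Without the 4 clock-shifted libraries it was -0.72 (edgeR adjusted p = 0.0033).

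Cyp2c70 stood at 182, 199, 201 and 328 CPM in the fasted libraries and at 620, 618, 1231, 533 and 1071 CPM in the re-fed ones. The groups did not overlap, and clock-shifted libraries 3 and 5 were the highest. Its log2 fold change was 1.84 (SE 0.29, 95% confidence interval 1.23 to 2.45, edgeR adjusted p = 0.000529), and 1.38 without the clock-shifted libraries (edgeR adjusted p = 0.00667).

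Cyp2c37, a hydroxylase and epoxygenase of arachidonic acid, stood at 274, 250, 252 and 254 CPM fasted and at 140, 199, 118, 123 and 93.7 CPM re-fed. Its neighbour Cyp2c54 stood at 410, 336, 340 and 341 CPM fasted and at 236, 234, 225, 190 and 140 CPM re-fed. In both genes every re-fed library lay below every fasted one, and library 5 was the lowest. Log2 fold changes were -0.93 for Cyp2c37 (SE 0.24, edgeR adjusted p = 0.0133) and -0.80 for Cyp2c54 (SE 0.18, edgeR adjusted p = 0.00572).

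These genes lie side by side. In the order Cyp2c37, Cyp2c54, Cyp2c50 and Cyp2c70 they fill 194.9 kb at the end of the chromosome 19 cluster, with gaps of 25.7, 15.9 and 39.4 kb between genes, and the last of them is the one that rose. Cyp2c50, an epoxygenase that lies between them, had a log2 fold change of -0.40 with re-feeding (SE 0.13, edgeR adjusted p = 0.0524, DESeq2 adjusted p = 0.025).

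Cyp2d26 stood at 1454, 1667, 1631 and 1590 CPM fasted and at 1105, 1252, 933, 1166 and 860 CPM re-fed, again with no overlap and with the clock-shifted libraries lowest. The log2 fold change of Cyp2d26 was -0.58 (SE 0.12, edgeR adjusted p = 0.0048). Cyp2e1, Cyp2c70, Cyp2c37, Cyp2c54 and Cyp2d26 passed the threshold in all 12 alternatives and with any 1 of the 9 libraries left out.

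The other 3 calls were less steady. Cyp2g1, best known from the olfactory mucosa, stood at 3.14, 3.39, 2.79 and 3.29 CPM fasted and at 1.47, 1.11, 0.701, 1.93 and 0.137 CPM re-fed, with a log2 fold change of -1.55 (SE 0.51, edgeR adjusted p = 0.0495). Cyp2c53-ps stood at 0.486, 0.214, 0.360 and 0.673 CPM fasted and at 0.932, 1.48, 1.77, 0.602 and 1.82 CPM re-fed, with a log2 fold change of 1.61 (SE 0.42, edgeR adjusted p = 0.0155). Cyp2r1, which carries out the first hydroxylation of vitamin D, stood at 7.68, 9.07, 8.83 and 9.24 CPM fasted and at 12.7, 8.71, 12.8, 10.4 and 13.4 CPM re-fed, with a log2 fold change of 0.41 (SE 0.14, edgeR adjusted p = 0.0499).

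Groups overlapped for Cyp2c53-ps, in re-fed library 4, and for Cyp2r1, in re-fed library 2, and did not for Cyp2g1. The Cyp2g1 call was lost without any of the 4 fasted libraries or of re-fed 1, 2, 3 or 5 (adjusted p up to 0.106). The Cyp2r1 call was lost without any of the 4 fasted libraries or of re-fed 1, 3 or 5 (up to 0.137), and was 0.266 without the clock-shifted libraries. The Cyp2c53-ps call was lost without fasted 3 or 4 (up to 0.06) and was 0.1 without the clock-shifted libraries.

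**Figure D2:**
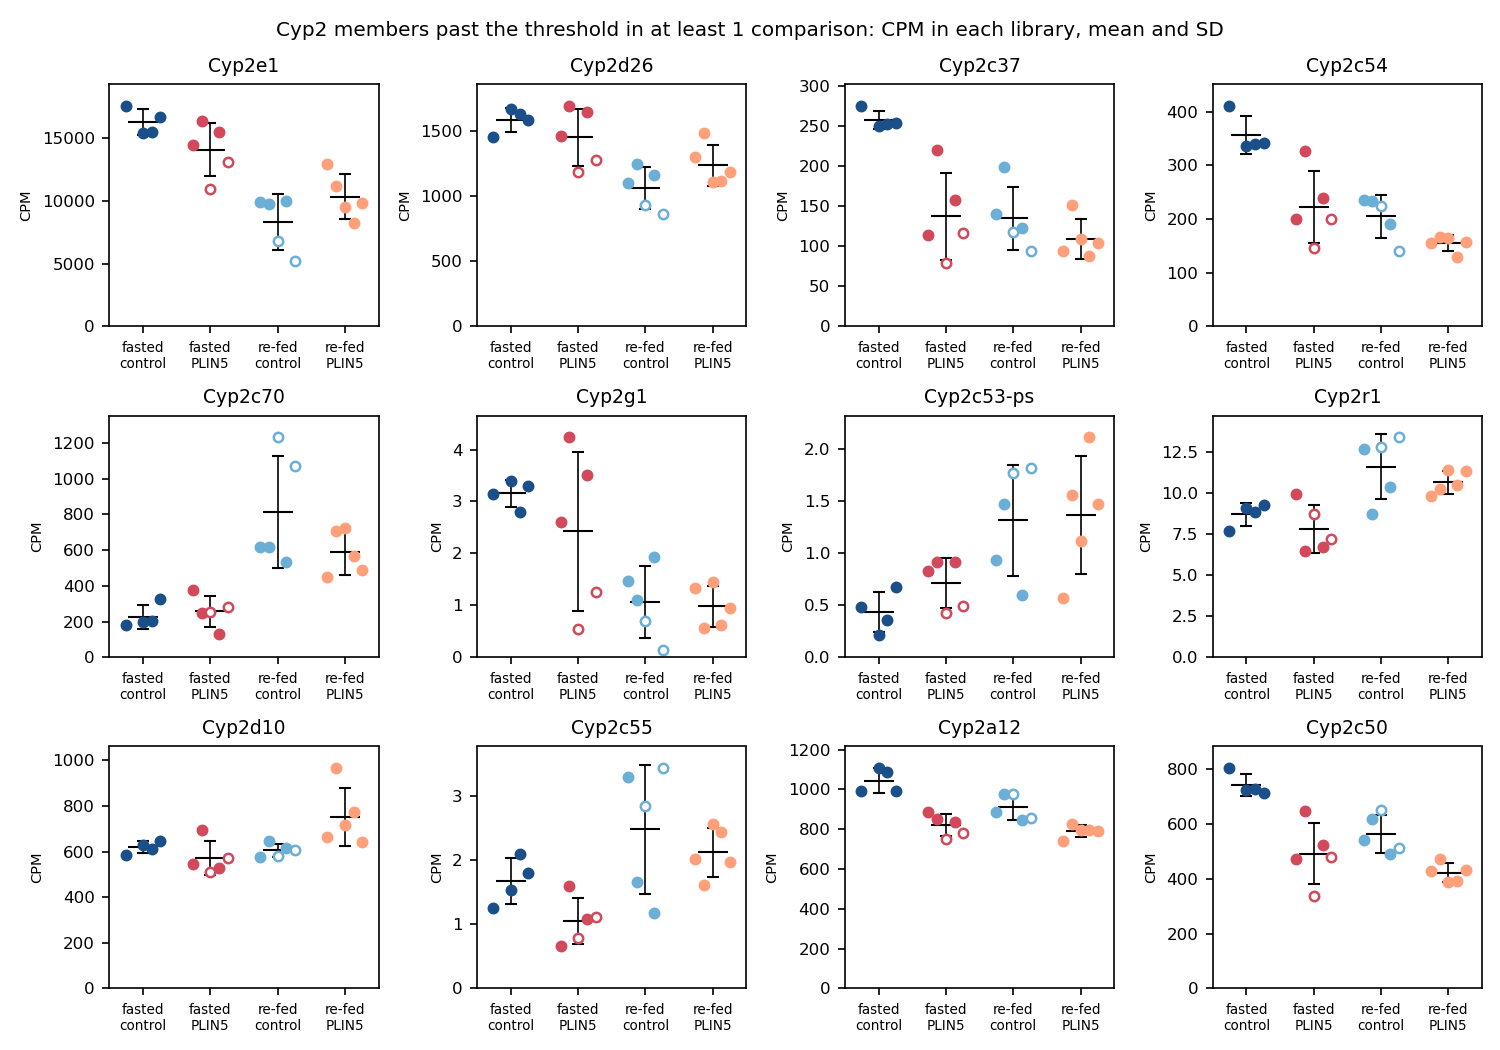
CPM in each library (points) with the mean and SD of each group (bars) for the 12 members past the threshold in at least 1 pairwise comparison; open points are the 4 clock-shifted libraries. For Cyp2e1, Cyp2d26, Cyp2c37 and Cyp2c54 every re-fed control ASO library lies below every fasted control ASO library, and for Cyp2c70 above it.

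Re-feeding under PLIN5 ASO asks the same question in livers with lower Plin5. Cyp2c70 rose here too, and so did Cyp2d10, Cyp2c55 and Cyp2r1, while 0 members fell. Of 39 members 4 passed the threshold (10.3%), against 8.64% of all genes (4.5% higher and 4.14% lower), and 11 had an unadjusted p under 0.05 (28.2%, against 23.5%), 4 of them lower. DESeq2 called 6, the same 4 and, lower, Cyp2c54 and Cyp2e1. Here the median log2 fold change was 0.03 against 0.00 for all genes. Groups did not overlap for 3 members that were higher, 7.69% against 3.94% of all genes, and for 0 that were lower, against 3.63%. In other Cyp families 10 of 34 tested genes passed in edgeR (29.4%), 2 higher and 8 lower, again a larger share. Both re-feeding comparisons have their own control libraries, the fasted ones of the same ASO.

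Cyp2c70 stood at 376, 247, 252, 130 and 282 CPM in fasted PLIN5 ASO and at 449, 708, 725, 570 and 489 CPM after re-feeding, with no overlap. Its log2 fold change was 1.19 (SE 0.27, 95% confidence interval 0.64 to 1.75, edgeR adjusted p = 0.00845), and it passed in all 12 alternatives and with any 1 of the 10 libraries left out. Its re-feeding response did not pass the test of a difference between ASOs (difference -0.65, SE 0.38, edgeR adjusted p = 0.428).

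Cyp2d10 stood at 546, 696, 510, 527 and 572 CPM fasted and at 665, 964, 715, 772 and 641 CPM re-fed. Groups overlapped through fasted library 2. The log2 fold change was 0.40 (SE 0.10, edgeR adjusted p = 0.0188), and 0.29 without re-fed library 2, where the call was lost (edgeR adjusted p = 0.0589). Without the clock-shifted libraries it was 0.35 (edgeR adjusted p = 0.0989). Under control ASO Cyp2d10 stood at 585, 630, 613 and 646 CPM fasted and at 576, 646, 582, 615 and 608 CPM re-fed, a log2 fold change of -0.03. The difference between the ASOs was 0.43 (95% confidence interval 0.12 to 0.74, unadjusted p = 0.0089, edgeR adjusted p = 0.237), the smallest p of the interaction among members.

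Cyp2c55, an inducible arachidonic acid hydroxylase, stood at 0.666, 1.60, 0.779, 1.09 and 1.12 CPM fasted and at 2.01, 1.61, 2.57, 2.44 and 1.96 CPM re-fed. The lowest re-fed library lay just above the highest fasted one. Its log2 fold change was 1.01 (SE 0.29, edgeR adjusted p = 0.0334). Cyp2r1 stood at 9.92, 6.45, 8.73, 6.71 and 7.19 CPM fasted and at 9.79, 10.3, 11.4, 10.5 and 11.3 CPM re-fed, overlapping through fasted library 1, with a log2 fold change of 0.45 (SE 0.13, edgeR adjusted p = 0.034).

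The Cyp2c55 call was lost without any 1 of fasted 1, 3, 4 or 5 or re-fed 3 or 4 (adjusted p up to 0.0835), and the Cyp2r1 call without any 1 of fasted 2, 4 or 5 or re-fed 2, 3, 4 or 5 (up to 0.0828). Leaving out the 4 clock-shifted libraries, 2 of them in fasted PLIN5 ASO, changed which members were called. There 8 passed, Cyp2c70 higher and 7 lower. The 7 were Cyp2g1 (log2 fold change -1.80), Cyp2a5 (-1.03), Cyp2a22 (-2.28), Cyp2c54 (-0.72), Cyp2e1 (-0.58), Cyp2d26 (-0.37) and Cyp2c50 (-0.37), with adjusted p from 0.000794 to 0.037 in edgeR. In all libraries Cyp2e1 had a log2 fold change of -0.45 (95% confidence interval -0.79 to -0.10, edgeR adjusted p = 0.102), and Cyp2c54 of -0.52 (edgeR adjusted p = 0.061).

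Cyp2e1 stood at 14493, 16354, 10984, 15505 and 13123 CPM in fasted PLIN5 ASO and at 12924, 11198, 9485, 8221 and 9865 CPM in re-fed PLIN5 ASO. The ranges overlapped through the clock-shifted fasted library 3, the lowest fasted one. The re-feeding response of Cyp2e1 differed between the ASOs by 0.52 (95% confidence interval 0.02 to 1.02, edgeR adjusted p = 0.32), and by 0.14 without the clock-shifted libraries (adjusted p = 0.83).

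The comparison of PLIN5 ASO with control ASO in fasted liver asks what the oligonucleotide changes in the fasted state. Its control libraries are the same that re-feeding under control ASO was set against, so these comparisons are not independent. Cyp2a12, Cyp2c37, Cyp2c50, Cyp2c54 and Cyp2j9 lay below all of these control libraries in both. Cyp2a12 fell from a mean of 1045 CPM ± 60.8 in the control group (SD, n = 4) to 821 CPM ± 56.2 (SD, n = 5), Cyp2c50 fell from 742 CPM ± 41.0 in the control group (SD, n = 4) to 492 CPM ± 112 (SD, n = 5), and most of the family lay on the lower side. Of 39 members 2 passed the threshold (5.13%), both lower, against 1.17% of all genes (0.602% higher and 0.572% lower). An unadjusted p under 0.05 was seen for 12 members (30.8%), 11 of them lower, against 15.1% of genes. The median log2 fold change was -0.24, against 0.01 for all genes, with 33 of 39 members negative, against 6382 of 13293 genes. Among the 34 tested genes of other Cyp families 14 were negative and the median was 0.09. Without the 4 clock-shifted libraries, in a fit that also tested Cyp2j8, 27 Cyp2 members were negative and 13 positive, with a median of -0.21. PLIN5 ASO libraries lay below every control library for 9 members, 23.1% against 4.26% of all genes, and above every one for 1, Cyp2d37-ps, 2.56% against 2.87%.

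Cyp2a12 stood at 990, 1105, 1088 and 994 CPM with control ASO and at 889, 853, 749, 836 and 781 CPM with PLIN5 ASO. Every PLIN5 ASO library was lower than every control one. The log2 fold change was -0.35 (SE 0.07, 95% confidence interval -0.50 to -0.20, edgeR adjusted p = 0.0258). Over the alternatives and left-out libraries it lay between -0.38 and -0.28, and the call was lost without any 1 of the 4 control libraries, without PLIN5 ASO 3 or 5, and on dropping the clock-shifted libraries (adjusted p up to 0.107). The call was also lost in the fit of only the groups compared and with fasted control ASO 3 and 4 as 1 sample.

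Cyp2c50 stood at 803, 724, 727 and 715 CPM with control ASO and at 473, 649, 336, 523 and 480 CPM with PLIN5 ASO. The groups did not overlap, and PLIN5 ASO 2 came nearest to the controls. Its log2 fold change was -0.59 (SE 0.13, 95% confidence interval -0.87 to -0.32, edgeR adjusted p = 0.0314). The call was lost without any 1 library except PLIN5 ASO 2, and on dropping the clock-shifted libraries, where the log2 fold change was -0.44 (edgeR adjusted p = 0.0786). Further losses came in the fit of only the groups compared, with fasted control ASO 3 and 4 as 1 sample, and in limma without a filter.

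Other members that lay below every control library were Cyp2c37, Cyp2c54, Cyp2c68, Cyp2c44, Cyp2j5, Cyp2j9 and Cyp2b9, and none passed the threshold. Cyp2c68 came nearest, at 117, 108, 105 and 142 CPM with control ASO and at 92.1, 94.4, 79.0, 87.3 and 83.8 CPM with PLIN5 ASO, and had a log2 fold change of -0.43 (edgeR adjusted p = 0.0513). Cyp2c37 had a log2 fold change of -0.91 (edgeR adjusted p = 0.0666) and Cyp2c54 of -0.68 (edgeR adjusted p = 0.0659). Cyp2c37 stood at 114, 221, 79.2, 157 and 116 CPM with PLIN5 ASO and Cyp2c54 at 199, 327, 146, 238 and 200 CPM. In both genes PLIN5 ASO 2 was the highest and PLIN5 ASO 3 the lowest of the group. DESeq2 called 5 members in this comparison, Cyp2a12, Cyp2c50, Cyp2c37, Cyp2c54 and Cyp2c68.

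Inflammation-related transcripts moved in the same livers. Of 12 genes listed for cytokine signalling and the acute phase response, 5 rose with PLIN5 ASO in fasted liver: Saa1, Saa2, Lcn2, Il1r1 and Il6ra. Among all genes tested 0.602% were called higher there. Saa1, an acute phase protein, stood at 73.2, 53.3, 46.5 and 152 CPM with control ASO and at 4170, 40.6, 4860, 121 and 2174 CPM with PLIN5 ASO. Libraries 1, 3 and 5 were high and libraries 2 and 4 lay at or below the highest control. Among macrophage markers C1qa and C1qb rose, 2 of 11, and the 11 summed to 135 to 154 CPM with control ASO and 147 to 388 CPM with PLIN5 ASO, with none at 0. The calls of C1qa, C1qb and Il6ra were kept in 2 of 9 fits that left out 1 library (edgeR adjusted p up to 0.142). The part of these differences in the Cyp2 values was not tested.

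The same 3 PLIN5 ASO libraries were the lowest of their group for several members and the highest for others. Among those others were Cyp2f2, Cyp2c70, Cyp2c67, Cyp2u1 and Cyp2r1. Members on both sides were picked after their values were seen. Cyp2c29 stood at 1169, 1318, 1298 and 1012 CPM in fasted control ASO and at 397, 1066, 274, 839 and 455 CPM in fasted PLIN5 ASO. Its log2 fold change was -0.98 (SE 0.28, interval at 95% confidence -1.58 to -0.39, edgeR adjusted p = 0.0984). Library 2 lay within the control range, library 4 below it and libraries 1, 3 and 5 far below it. Cyp2c38, Cyp2a5, Cyp2c39 and, further on, Cyp2a4 and Cyp2d34 were singled out for their spread after their values were seen. Cyp2c38, another arachidonic acid epoxygenase, stood at 69.1, 71.9, 72.2 and 42.3 CPM with control ASO and at 5.62, 54.5, 3.18, 68.0 and 13.6 CPM with PLIN5 ASO. Cyp2a5, which hydroxylates coumarin and nicotine, stood at 1218, 1514, 1590 and 1007 CPM and at 764, 1371, 86.6, 1127 and 330 CPM. Cyp2c39, a retinoic acid hydroxylase, stood at 2.97, 3.24, 2.01 and 1.66 CPM and at 0.233, 2.31, 0.0325, 3.51 and 0.593 CPM.

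Of the 41 members 24 had their lowest fasted PLIN5 ASO value in library 3, against 2, 4, 10 and 1 in libraries 1, 2, 4 and 5. The share of all genes lowest in library 3 was not counted, so these counts cannot show a trait of the family. Library 3 was both clock-shifted and the highest for Saa1. Library 1 was not clock-shifted (Dbp 137 CPM). In re-fed control ASO the clock-shifted libraries 3 and 5 were also the highest for Saa1, at 470 and 391 CPM (others 66.7 to 86.1 CPM). Fits without the clock-shifted libraries therefore also leave out libraries with raised Saa1, and these traits cannot be told apart there. The part of the clock shift in the Cyp2 values was not tested. Log2 fold changes of Cyp2a5, Cyp2c38 and Cyp2c39 were -0.86, -1.14 and -0.89, with edgeR adjusted p of 0.497, 0.445 and 0.546.

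**Figure D3:**
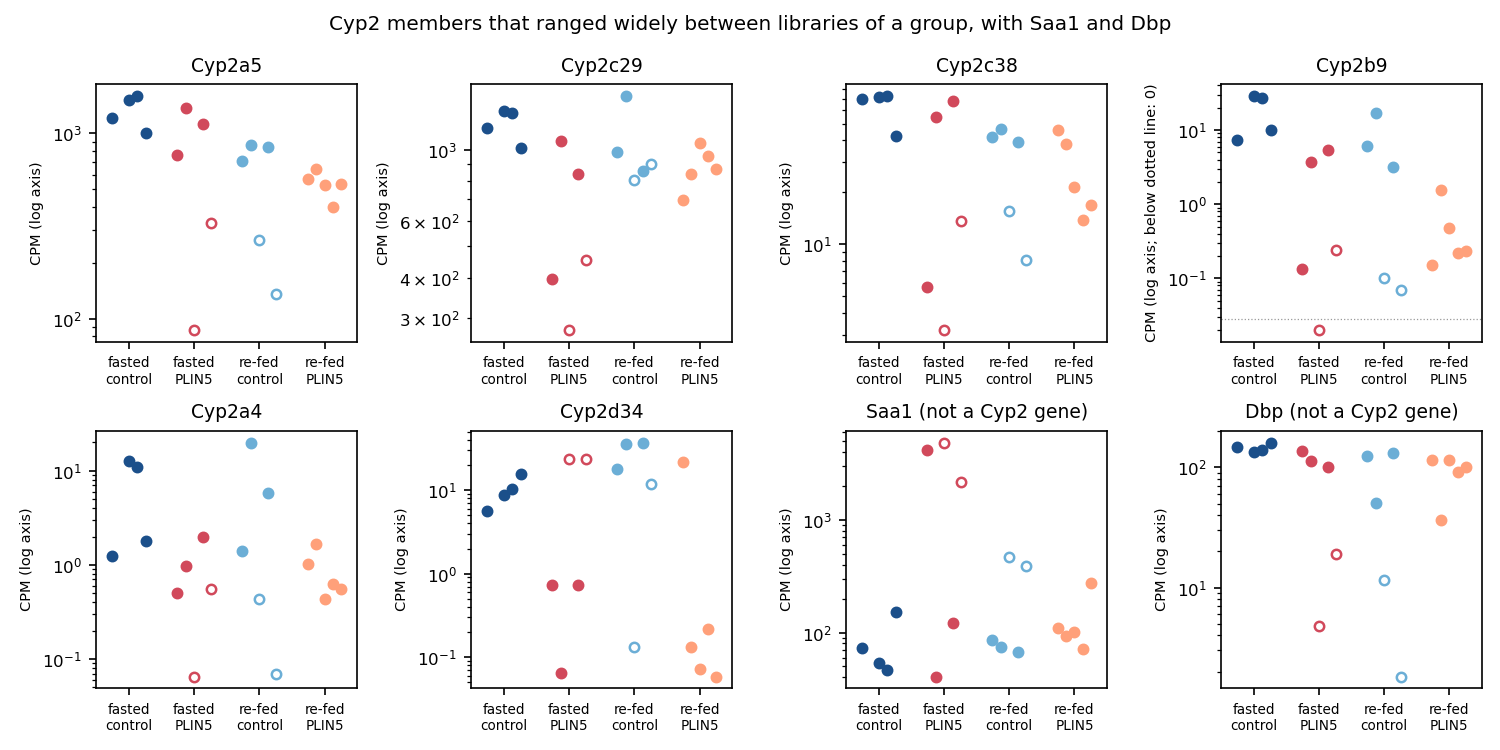
CPM in each library on log axes for 6 members that ranged widely within a group and for Saa1 and Dbp; open points are the clock-shifted libraries, and a point under the dotted line is 0. Fasted PLIN5 ASO 1, 3 and 5, with Saa1 at 2174 CPM or more, hold the 3 lowest Cyp2c29, Cyp2c38 and Cyp2a5 values of their group, and Cyp2d34 separates into libraries above 5 CPM and libraries under 1 CPM.

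Cyp2b9 and Cyp2a4, both female-typical in mouse liver, ranged widely among the control ASO libraries. Cyp2b9 stood at 7.40, 28.7, 26.7 and 10.1 CPM in fasted control ASO and at 0.133, 3.68, 0, 5.37 and 0.244 CPM in fasted PLIN5 ASO. In re-fed liver it stood at 6.17, 16.8, 0.10, 3.20 and 0.0686 CPM with control ASO and at 0.152, 1.56, 0.470, 0.219 and 0.233 CPM with PLIN5 ASO. Fasted groups did not overlap, and re-fed groups overlapped through the clock-shifted control libraries 3 and 5. Fitted log2 fold changes were -3.28 fasted (SE 1.07, edgeR adjusted p = 0.143) and -3.45 re-fed (SE 1.21, edgeR adjusted p = 0.136). Without the clock-shifted libraries the re-fed difference passed (log2 fold change -4.21, edgeR adjusted p = 0.0436).

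Cyp2a4, a steroid hydroxylase, stood at 1.26, 12.6, 11.0 and 1.81 CPM in fasted control ASO and at 0.499, 0.977, 0.0649, 1.97 and 0.558 CPM in fasted PLIN5 ASO. Fasted control libraries 3 and 4, the near-identical pair, held its highest fasted values, as they did for Cyp2b9. The fasted groups overlapped through control libraries 1 and 5 and PLIN5 ASO 4. In re-fed liver Cyp2a4 stood at 1.40, 19.9, 0.434, 5.83 and 0.0686 CPM with control ASO and at 1.02, 1.65, 0.434, 0.619 and 0.553 CPM with PLIN5 ASO. The re-fed control libraries reached both above and below those with PLIN5 ASO, and the clock-shifted 3 and 5 were the lowest controls. Fitted log2 fold changes of Cyp2a4 were -3.04 fasted (SE 1.03, edgeR adjusted p = 0.159) and -2.73 re-fed (SE 1.01, edgeR adjusted p = 0.154). Cyp2a4 shares 38.0% of its 50-base stretches with other genes, mainly with Cyp2a5.

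Cyp2d34 was either present or nearly absent. It stood at 5.66, 8.71, 10.2 and 15.8 CPM and at 0.732, 0.0651, 23.4, 0.737 and 23.8 CPM in the fasted libraries with control and PLIN5 ASO. After re-feeding it stood at 17.8, 35.9, 0.134, 37.2 and 12 CPM with control ASO and at 22.0, 0.130, 0.0724, 0.219 and 0.0582 CPM with PLIN5 ASO. No library lay between 0.737 and 5.66 CPM. High libraries numbered 4 of 4, 2 of 5, 4 of 5 and 1 of 5 in these groups, and the deposited FPKM showed the same libraries high. None of the 4 comparisons passed for it (edgeR adjusted p from 0.374 to 0.989). Its nearest neighbours in the chromosome 15 cluster did not follow it. Over all libraries Cyp2d13 stood at 181 to 319 CPM, Cyp2d12 at 1.69 to 6.01 CPM and Cyp2d37-ps at 54.8 to 105 CPM. Cyp2d9, farther off in the cluster, stood between 1108 and 1591 CPM in every library.

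The comparison of PLIN5 ASO with control ASO in re-fed liver asks the same question after 4 h of food. In edgeR 0 of 39 members passed the threshold, against 1.38% of all genes (0.812% higher and 0.564% lower). There were 9 with an unadjusted p under 0.05 (23.1%, against 19% of all genes), 2 higher and 7 lower, and DESeq2 called 2, Cyp2c50 and Cyp2a12, both lower. The median log2 fold change was -0.16, against -0.01 for all genes, with 27 of 39 members negative. In other Cyp families 17 of 34 tested genes were negative and the median was -0.05. Groups did not overlap for 2 members that were lower (5.13%, against 1.74%), Cyp2a12 and Cyp2c50, and for 1 that was higher (2.56%, against 2.48%), Cyp2d22.

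Cyp2c50 stood at 542, 618, 652, 493 and 512 CPM with control ASO and at 429, 471, 389, 392 and 434 CPM with PLIN5 ASO, a log2 fold change of -0.41 (SE 0.13, edgeR adjusted p = 0.0914). Cyp2a12 stood at 889, 979, 979, 845 and 855 CPM and at 743, 824, 798, 794 and 790 CPM, a log2 fold change of -0.20 (SE 0.07, edgeR adjusted p = 0.123). Both were the members called in fasted liver, measured here in other libraries. Cyp2d22, one of the drug-oxidising Cyp2d enzymes, stood at 307, 322, 294, 310 and 247 CPM and at 368, 378, 355, 346 and 345 CPM, a log2 fold change of 0.28 (SE 0.10, edgeR adjusted p = 0.155).

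The interaction of ASO and feeding was called for 0 of 39 members by edgeR, against 0.0226% of all genes (0.015% higher and 0.00752% lower). There were 5 members with an unadjusted p under 0.05 (12.8%, against 15% of all genes), Cyp2d10, Cyp2d37-ps, Cyp2c44, Cyp2d22 and Cyp2e1, and DESeq2 called 0. A p that misses the threshold does not show that the responses were alike: the 95% confidence interval reached 1.14 on the log2 scale for Cyp2c44 and 1.02 for Cyp2e1.

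**Figure D4:**
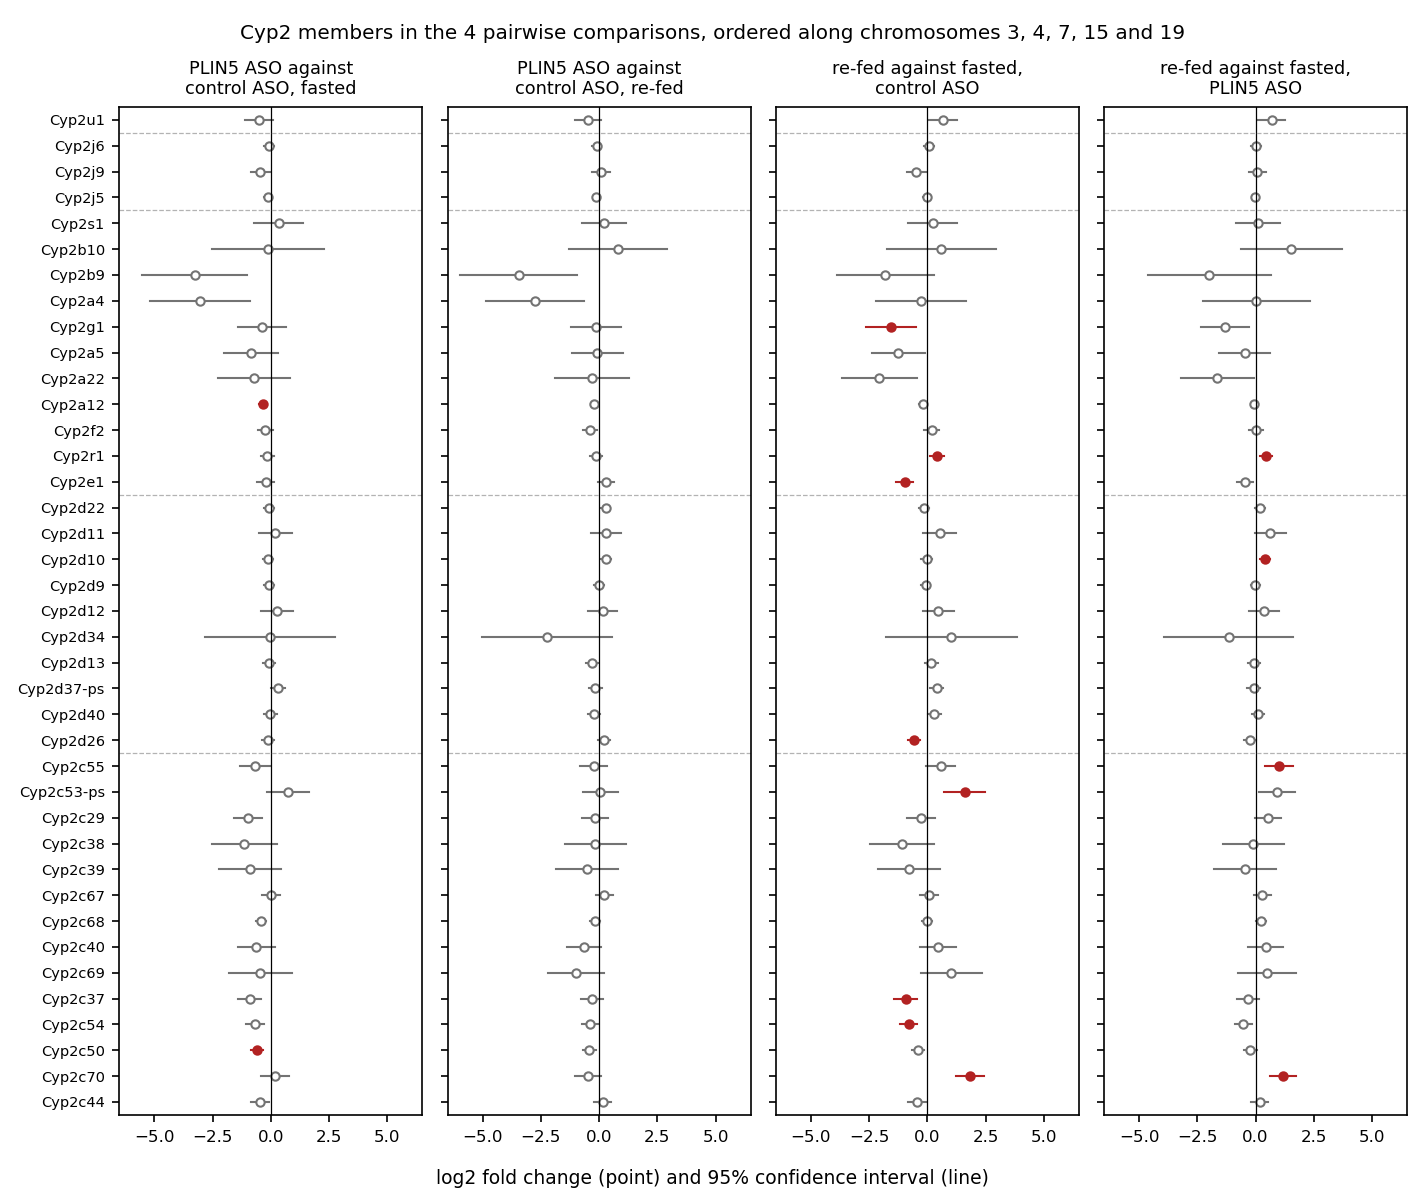
Log2 fold changes (points) with 95% confidence intervals (lines) of the 39 members tested in the 4 pairwise comparisons, in chromosome order with dashed lines between chromosomes 3, 4, 7, 15 and 19; filled red points passed an adjusted p of 0.05 in edgeR. Most members lie left of 0 in fasted liver with PLIN5 ASO (33 of 39), and with re-feeding Cyp2c37 and Cyp2c54 lie left of 0 while the nearby Cyp2c70 lies right of it.

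The abundant members Cyp2d9, Cyp2j5 and Cyp2f2 passed in no comparison in edgeR. Cyp2d9 had means of 1426 CPM ± 118 (SD, n = 4) and 1356 CPM ± 106 (SD, n = 5) in fasted livers with control and PLIN5 ASO and of 1354 CPM ± 194 (SD, n = 5) and 1345 CPM ± 109 (SD, n = 5) in re-fed ones. Its log2 fold changes lay between -0.07 and -0.01, and the 95% confidence interval of the fasted ASO difference was -0.28 to 0.14. Cyp2j5, an epoxygenase of liver and kidney, had log2 fold changes of -0.13 and -0.12 for PLIN5 ASO in fasted and re-fed liver and of -0.03 and -0.02 for re-feeding. Its fasted PLIN5 ASO libraries, at 620 to 734 CPM, all lay below the fasted control ones, at 743 to 783 CPM. Cyp2f2 stood at 1290, 1551, 1526 and 1536 CPM and at 1321, 1156, 1431, 930 and 1423 CPM in fasted livers with control and PLIN5 ASO, and at 1374, 1487, 1916, 1389 and 2202 CPM and at 1048, 1133, 1418, 1411 and 1375 CPM in re-fed ones. The clock-shifted re-fed control libraries 3 and 5 were its highest. For PLIN5 ASO the log2 fold change of Cyp2f2 was -0.24 in fasted and -0.39 in re-fed liver, the latter with a 95% confidence interval of -0.69 to -0.09 (edgeR adjusted p = 0.152).

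Among scarce members Cyp2u1, a fatty acid hydroxylase, stood at 10.1 to 16.9 CPM and 6.48 to 11.9 CPM in fasted livers with control and PLIN5 ASO and at 11.5 to 37.4 CPM and 9.41 to 20.9 CPM in re-fed ones. Its highest values, 25.6 and 37.4 CPM, were in the clock-shifted re-fed libraries. Log2 fold changes with re-feeding were 0.67 under control ASO and 0.69 under PLIN5 ASO (edgeR adjusted p = 0.126 and 0.127). Cyp2s1 held 0.146 to 0.826 CPM in all libraries and Cyp2t4 0 to 0.364 CPM, and Cyp2s1 did not pass in edgeR in any comparison. The within-group coefficient of variation of a member, taken as its median over the 4 groups, had a median of 26.0% over the members. It passed 50% for 10 of them, with Cyp2b9 (122%), Cyp2d34 (103%) and Cyp2b10 (102%) the highest.

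Genes that supply the P450 enzymes were also read. For this list and those below, the shares of all genes called were 1.17% and 1.38% for PLIN5 ASO in fasted and re-fed liver. For re-feeding under control and PLIN5 ASO they were 13.2% and 8.64%. An unadjusted p under 0.05 was seen for 15.1%, 19%, 28.8% and 23.5% of all genes in the same order. Of 6 electron donors and partners 0 passed for PLIN5 ASO in fasted liver, with 0 at an unadjusted p under 0.05, and 3 passed for re-feeding under control ASO. These were Cyb5b and Cyb5r3, higher (log2 fold changes 0.80 and 0.67, edgeR adjusted p = 0.000233 and 0.00653), and Cyb5a, lower (-0.59, edgeR adjusted p = 0.005). Under PLIN5 ASO Cyb5b and Cyb5r3 rose with re-feeding (0.60 and 0.63, edgeR adjusted p = 0.0014 and 0.00871). Por, the oxidoreductase, stood at 464, 798, 783 and 705 CPM fasted and at 579, 764, 144, 498 and 111 CPM re-fed with control ASO (log2 fold change -0.72, edgeR adjusted p = 0.347). Its lowest values were in the clock-shifted libraries 3 and 5.

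Haem is the P450 cofactor, and 3 of 12 genes of haem synthesis and breakdown fell with re-feeding under control ASO: Blvrb (-0.57), Alad (-0.37) and Cpox (-0.33), with edgeR adjusted p from 0.0147 to 0.0241. Cpox also fell under PLIN5 ASO (-0.56, edgeR adjusted p = 0.000451). For PLIN5 ASO 0 of 12 passed in edgeR in either feeding state, with 2 at an unadjusted p under 0.05 in fasted and 0 in re-fed liver. Alas1, the rate-limiting enzyme of haem synthesis, ranged from 119 to 1610 CPM in re-fed control ASO, lowest in the clock-shifted libraries (160 and 119 CPM), and had a log2 fold change of -0.86 with re-feeding (edgeR adjusted p = 0.386).

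Of 20 nuclear receptors and hepatocyte factors 3 fell with re-feeding under control ASO. The CAR gene Nr1i3 stood at 196, 215, 222 and 211 CPM fasted and at 148, 167, 87.0, 105 and 72.0 CPM re-fed, a log2 fold change of -0.86 (SE 0.27, edgeR adjusted p = 0.0398), with no overlap. This call was lost without any 1 of the 4 fasted libraries or of re-fed 3, 4 or 5 (adjusted p up to 0.0948), and without the clock-shifted libraries (log2 fold change -0.59, edgeR adjusted p = 0.166). Its partner Rxra had -0.30 (edgeR adjusted p = 0.0197) and Ppara, a receptor for fatty acids, -0.57 (edgeR adjusted p = 0.0178). Hnf4a had log2 fold changes of 0.16 and 0.05 with re-feeding under control and PLIN5 ASO (edgeR adjusted p = 0.327 and 0.794) and of 0.18 and 0.07 for PLIN5 ASO in fasted and re-fed liver. Under PLIN5 ASO Cebpb (-0.92) and Ncor1 (-0.31) fell with re-feeding, with edgeR adjusted p of 0.00239 and 0.0158.

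For PLIN5 ASO 0 of the 20 passed in edgeR in either feeding state. Of them 4 and 7 had an unadjusted p under 0.05 in fasted and re-fed liver, against 15.1% and 19% of all genes. Nr1i2 (PXR) had log2 fold changes of 0.35 and 0.40 there (edgeR adjusted p = 0.386 and 0.22). Of 7 clock output factors 1 passed with re-feeding, Bhlhe40, higher under control ASO (0.74, edgeR adjusted p = 0.00129) and PLIN5 ASO (1.27, edgeR adjusted p = 6.43e-06). Dbp did not pass in any comparison (edgeR adjusted p from 0.363 to 0.857). Of 9 tested growth hormone and sex-biased regulators 0 passed in edgeR in any pairwise comparison, with 0, 2, 0 and 1 at an unadjusted p under 0.05 in fasted and re-fed ASO and in re-feeding under control and PLIN5 ASO.

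Markers of liver zones were read because many Cyp2 genes are zoned. In fasted liver with PLIN5 ASO 2 of 12 pericentral markers fell, Cyp1a2 (-0.78, edgeR adjusted p = 0.00294) and Tbx3 (-0.88, edgeR adjusted p = 0.0296), and Ahr, counted in the same list, rose (0.73, edgeR adjusted p = 0.0478). With 1 library left out the Cyp1a2 call was kept in 9 of 9 fits and the Tbx3 and Ahr calls in 1 of 9 (edgeR adjusted p up to 0.142 and 0.143). Their list summed to 4468 to 5087 CPM with control ASO and to 3798 to 4469 CPM with PLIN5 ASO. Of 11 periportal markers 0 passed there in edgeR, with 3 at an unadjusted p under 0.05, and their list summed to 6958 to 10044 and to 9817 to 11207 CPM. With re-feeding under control ASO Oat (-0.99) fell among pericentral markers and Cps1 (0.85) and Arg1 (0.46) rose and Hsd17b13 (-0.46) fell among periportal ones. Their edgeR adjusted p ran from 2.36e-05 for Cps1 to 0.0102 for Arg1.

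Markers of other cells were scarce. Neutrophil and monocyte markers summed to 2.38 to 6.30 CPM and lymphocyte markers to 3.71 to 12.2 CPM over all libraries. Stellate and fibroblast markers summed to 135 to 172 CPM in fasted control ASO and 174 to 269 CPM in fasted PLIN5 ASO, where Col1a2, Col3a1 and Lum rose, 3 of 10, each kept in 2 of 9 fits that left out 1 library (edgeR adjusted p up to 0.135). Liver endothelial markers summed to 108 to 198 CPM and cholangiocyte markers to 32.2 to 68.3 CPM, and no marker in these lists was at 0 throughout a group. The part of zone or cell type markers in the Cyp2 values was not tested.

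The members not named with values in every library make up the rest of the family. Cyp2d11, Cyp2d12, Cyp2d13, Cyp2d37-ps, Cyp2d40, Cyp2c40, Cyp2c44, Cyp2c67, Cyp2c69, Cyp2j6, Cyp2j8, Cyp2j9, Cyp2a22 and Cyp2b10 passed in none of the 4 comparisons in edgeR or, for Cyp2j8, were not tested. Cyp2d37-ps came nearest with re-feeding under control ASO, at 54.8 to 70.0 CPM fasted and 70.0 to 95.8 CPM re-fed (log2 fold change 0.40, edgeR adjusted p = 0.0688), where DESeq2 called it (DESeq2 adjusted p = 0.0467). Cyp2a22 had the lowest log2 fold change there, -2.06 (SE 0.77, edgeR adjusted p = 0.0819), from 4.57 to 26.4 CPM fasted to 0.754 to 9.11 CPM re-fed.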

How the data were processed

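RNA-seq was deposited for 19 libraries of mouse liver. The authors deposited whole-number read counts per gene for each library in one table, and per the submitters' processing notes reads passed through FastQC, HISAT2 2.0.2, Subread, edgeR and Cuffdiff 2.2.1 with builds mm10 and GRCm38. The authors deposited FPKM per gene as a second table. Those notes give no role or order, and the gene annotation was not given in the sources used here.

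From the counts, edgeR 4.0.16 (R 4.3.3) was run on all 19 libraries with TMM scaling, filterByExpr (13293 genes kept), 1 mean per group and quasi-likelihood F tests, with Benjamini-Hochberg adjustment over all genes and a threshold of 0.05. Standard errors were the fold change over the root of F. CPM use library totals (24.9 to 66.9 in units of 1000000 counts) after TMM scaling. Alternatives used DESeq2 1.42.0, limma 3.58.1 on log2(FPKM + 1) and log2(FPKM + 0.1), other filters and scaling, fewer libraries and a replicate block. Positions came from GENCODE M21 and upstream sequences from RefSeq GRCm38.p6. The edgeR step was tested on simulated data.

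Members followed the naming rule with a minimum of 50 counts. Named with values were up to 12 called members in each comparison and the most abundant member of each subfamily, and from each other list up to 4 called genes with Por, Alas1, Nr1i2, Nr1i3, Hnf4a and Dbp. Other members given with values, such as Cyp2c38, Cyp2d34 and those just short of the threshold, were chosen after their values were seen. Members and gene lists were chosen with earlier results of these data known. Some results of these lists are not reported here.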

Additional observations from a re-analysis of the deposited data

Results flagged for a closer look

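A library far from the rest of its group, by Dixon's ratio at 95%, was found for 14 of 164 groups of member values, where chance flags about 1 in 20 groups. In fasted control ASO library 1 stood highest for Cyp2c37 at 274 CPM (others 250 to 254), Cyp2c50 at 803 CPM (715 to 727) and Cyp2c54 at 410 CPM (336 to 341), 3 neighbours on chromosome 19, and lowest for Cyp2f2 at 1290 CPM (1526 to 1551). Library 5 of that group stood lowest for Cyp2c38 at 42.3 CPM (69.1 to 72.2) and highest for Cyp2c70 at 328 CPM (182 to 201) and Cyp2j9 at 27.5 CPM (20.4 to 21.5). In that group libraries 3 and 4 were near-identical, which narrows the spread of the others.

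In fasted PLIN5 ASO, Cyp2c69 stood at 1.46 CPM in library 1 (others 0.552 to 0.698). In re-fed control ASO, Cyp2c29 stood at 1466 CPM in library 2 (802 to 984) and Cyp2c69 at 6.78 CPM in library 3 (0.728 to 1.69). In re-fed PLIN5 ASO, library 2 stood highest for Cyp2b9 at 1.56 CPM (0.152 to 0.470) and Cyp2c68 at 115 CPM (98.3 to 103), library 4 lowest for Cyp2c54 at 129 CPM (156 to 166) and library 1 highest for Cyp2d34 at 22.0 CPM (0.0582 to 0.219).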

How the results depend on the processing

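Of 39 members, PLIN5 ASO in fasted liver called 2. DESeq2 and limma on log2(FPKM + 1) called 5, limma on log2(FPKM + 0.1) 4 and without a filter 1. A fit of only the groups compared, fasted control ASO 3 and 4 as 1 sample, and the fit without the 4 clock-shifted libraries each called 0. In re-fed liver, where edgeR called 0, DESeq2 called 2, and limma with either pseudocount and the fit without the clock-shifted libraries 1. Re-feeding under PLIN5 ASO called 4, against 2 in the fit of only the groups compared and in limma without a filter, and 8 without the clock-shifted libraries. Leaving out 1 library gave 0 to 5 calls in fasted liver, 0 in re-fed liver, 5 to 9 for re-feeding under control ASO (8 in the full fit) and 2 to 5 under PLIN5 ASO. The interaction called 0 throughout. No called Cyp2 member changed direction in the comparison that called it, but members short of the threshold did: without the clock-shifted libraries 32, 34, 36, 35 and 25 of 39 kept their direction for PLIN5 ASO in fasted and re-fed liver, re-feeding under control and PLIN5 ASO and the interaction. The cause of these moves was not tested.

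Same-numbered libraries did not pair: correlations of their deviations ran from -0.32 to 0.27. With the replicate block the counts were 6 and 1 for PLIN5 ASO in fasted and re-fed liver and 13 for re-feeding under control ASO. Members under 1 CPM rest on few counts per library.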
